A study of Mus musculus with 4 samples.

Results

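Fibroblast growth factor (Fgf) signalling was examined at 33 mouse genes: 20 genes of the Fgf family, grouped here as ligands, 5 receptor genes, and 8 genes for feedback inhibitors and transcriptional targets of the pathway. They were chosen by gene name out of 21523 protein-coding genes on chromosomes 1 to 19 and X. The list was fixed with earlier results of these data known. The data are CUT&RUN peak lists from E13.5 (embryonic day) molar tooth germs, taken from wild-type embryos of the outbred CD1 strain. CUT&RUN cuts and sequences the DNA around the sites where an antibody binds chromatin. In 2 libraries the antibody recognised the phosphorylated form of Smad1/5 (pSmad1/5), which carries BMP signals, and in 2 that of Smad3 (pSmad3), which carries TGF-β and activin signals. All 4 libraries share the genotype, tissue and stage, and no untreated or control library was analysed here. The deposited lists held 10741 pSmad1/5 and 7905 pSmad3 peaks, each list standing for both libraries of its antibody. There is therefore no value per library, no measure of spread between replicates and no p-value, and read depth is unknown. The germs were dissociated whole, so epithelium, mesenchyme and other cells contributed together.

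Fgf ligands are mostly secreted proteins that bind receptor tyrosine kinases together with heparan sulfate, and the receptors signal through the Ras and MAP kinase cascade. The cascade raises transcription of its own brakes, the Sprouty and Spred proteins and the phosphatase Dusp6, and of the Ets factors Etv4 and Etv5, which are standard readouts of Fgf activity. In the developing tooth, Fgf and BMP signals pass back and forth between the dental epithelium and the mesenchyme, and the enamel knot is a source of several ligands. A few family members act otherwise: Fgf11, Fgf12 and Fgf14 stay inside the cell, and Fgf15, Fgf21 and Fgf23 act as hormones.

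Promoter sequences are shown first for the 5 genes that had peaks of both antibodies within reach. Those peaks lay from 0 bp (Fgf11) to 74908 bp (Spred2) from the start, and only the Fgf11 window was touched by a peak. The windows run from 250 bases before to 50 after a transcription start and come from RefSeq (GRCm38.p6, the same assembly as mm10), which matched 25 of the 33 genes with 30 windows. They lie at chr11:69802231-69802530 on the minus strand for Fgf11, chr11:33147351-33147650 on the minus strand for Fgf18, chr10:79754859-79755158 on the plus strand for Fgf22, chr7:130266759-130267058 on the minus strand for Fgfr2, and chr11:19924192-19924491 on the plus strand for Spred2. Each is written from 5′ to 3′ on the strand of its gene, and capitals mark matches on either strand to CAGAC or GGCGCC, letters of known Smad binding sites.
Fgf11: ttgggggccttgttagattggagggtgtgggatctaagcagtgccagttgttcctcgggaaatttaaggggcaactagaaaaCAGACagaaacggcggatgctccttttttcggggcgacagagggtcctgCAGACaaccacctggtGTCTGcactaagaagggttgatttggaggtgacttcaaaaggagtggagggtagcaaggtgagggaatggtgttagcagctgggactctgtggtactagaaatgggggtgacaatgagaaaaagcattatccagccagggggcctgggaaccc
Fgf18: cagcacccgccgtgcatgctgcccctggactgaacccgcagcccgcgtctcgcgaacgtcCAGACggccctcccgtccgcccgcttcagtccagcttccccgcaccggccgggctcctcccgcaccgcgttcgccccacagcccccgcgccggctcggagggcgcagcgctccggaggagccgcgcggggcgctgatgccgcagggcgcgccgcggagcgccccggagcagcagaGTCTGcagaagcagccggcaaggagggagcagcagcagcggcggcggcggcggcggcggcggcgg
Fgf22: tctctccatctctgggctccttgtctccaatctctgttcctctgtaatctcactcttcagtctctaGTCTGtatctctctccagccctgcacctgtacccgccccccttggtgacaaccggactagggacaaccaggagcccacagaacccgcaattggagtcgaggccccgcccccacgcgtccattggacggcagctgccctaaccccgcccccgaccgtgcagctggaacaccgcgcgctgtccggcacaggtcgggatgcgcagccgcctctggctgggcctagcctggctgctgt
Fgfr2: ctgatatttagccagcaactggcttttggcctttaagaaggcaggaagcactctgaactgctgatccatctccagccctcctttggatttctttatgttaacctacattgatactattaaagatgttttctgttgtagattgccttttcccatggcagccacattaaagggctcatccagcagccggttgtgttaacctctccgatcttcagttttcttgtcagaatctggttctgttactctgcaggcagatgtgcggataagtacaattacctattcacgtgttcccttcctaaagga
Spred2: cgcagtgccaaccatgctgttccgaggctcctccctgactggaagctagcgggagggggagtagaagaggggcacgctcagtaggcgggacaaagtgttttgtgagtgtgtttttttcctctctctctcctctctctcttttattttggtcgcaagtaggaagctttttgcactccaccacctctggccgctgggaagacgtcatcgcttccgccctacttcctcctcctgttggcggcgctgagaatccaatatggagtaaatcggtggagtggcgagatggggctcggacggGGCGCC

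The Fgf11 window was the only 1 of the 30 that a pSmad1/5 peak touched, and 0 of the 30 were touched by a pSmad3 peak. Over all 32851 RefSeq windows the shares were 3.09% and 3.82%, so both counts are near the background. The counts use deposited peaks, and the Fgf11 window lay between a pSmad3 peak and the region of that call's maximum. Of the 5 members with a peak over a gene end, 4 (Fgf8, Fgf17, Fgfr1 and Spry4) are among the 8 genes without a window. These 4 could not be counted here, and whether their peaks cover a start was not determined. The Fgf11 window holds 3 CAGAC matches, which begin 168, 119 and 103 bases before the start. The Fgf22 window holds 1 such match, and a pSmad3 peak ended 49 bp before the window. The Fgf18 window holds 2 CAGAC matches, the Spred2 window 1 GGCGCC match that begins at base 45 after the start, and the Fgfr2 window neither motif. Over the 30 windows, CAGAC was in 9 (30.0%, against 48.3% of the windows of protein-coding genes and 49.6% of all) and GGCGCC in 10 windows of 8 genes (33.3%, against 15.5% and 11.9%). The palindrome GTCTAGAC, the classical Smad binding element, was in 0 windows (0.213% of all). The members' windows had a median GC content of 63.2%, against 56.7% for protein-coding genes, and its part in the motif counts was not tested. The 3 motifs cannot overlap in these counts by containing each other, and a match of letters is a description of the sequence.

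At the level of whole loci, pSmad1/5 peaks were spread over more of the pathway than pSmad3 peaks, and for pSmad1/5 the receptors had the highest share of the 3 roles. A locus here is the gene body with 10 kb on each side, and a gene counts as having a peak if at least 1 bp of a peak falls in it. A pSmad1/5 peak was present at 12 of the 33 genes (36.4%), where 27.3% of protein-coding genes had a peak. A pSmad3 peak was present at 6 (18.2%), where 24.4% of protein-coding genes had a peak. Both antibodies had peaks at 5 genes (15.2%, against 14.1%), and 20 had neither (60.6%, against 62.4%). Longer loci catch more peaks, so the counts were also set against the share of protein-coding genes in the same of 20 classes of locus length. That gives 9.59 genes for pSmad1/5, 8.63 for pSmad3, 5.07 for both and 19.9 for neither. In this setting the member counts thus lay close to the background for both antibodies together and for neither. They lay a few genes above it for pSmad1/5 and a few below it for pSmad3. The pSmad3 side turned when each peak was given to the gene with the nearest end within 100 kb, with 9 members (27.3%) against 20.9% of protein-coding genes. With that assignment 17 members (51.5%) had neither, against 66.4% of protein-coding genes. When peaks touching another gene's body were left out, the pSmad3 count stayed at 6 members (18.2%), near the share of 16.7% of protein-coding genes. None of these differences was tested, since the genes are a chosen list and the data give no replicate error.

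By role, 4 of the 5 receptor genes had a pSmad1/5 peak, where the length classes give 1.48, and 1 had a pSmad3 peak (1.31). Among the 20 ligand genes the counts were 6 for pSmad1/5 (5.80 by length) and 4 for pSmad3 (5.22). Among the 8 feedback genes they were 2 (2.32) and 1 (2.09). The median locus was 29.3 kb for ligands, 35.9 kb for receptors and 35.3 kb for feedback genes, against 37.4 kb over all protein-coding genes. Whether the classes differ from each other was not tested, and the receptor class is only 5 genes.

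**Figure D1:**
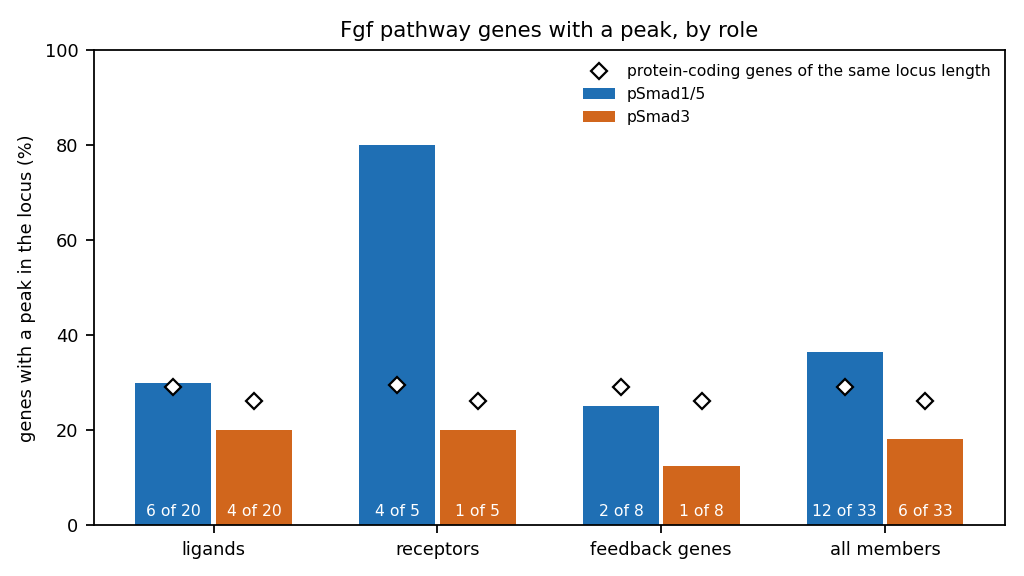
Share of genes with a peak in the locus (vertical axis, percent) for ligands, receptors, feedback genes and all members, with the number of genes in each bar. Blue bars are pSmad1/5, orange bars pSmad3, and diamonds the share among protein-coding genes of the same locus length. The receptor bar for pSmad1/5, 4 of 5 genes, stands highest above its diamond, and no bar has an error because each antibody has 1 list.

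Receptors carried their pSmad1/5 peaks in different places. Fgfr1, a receptor found mainly in mesenchyme, had 2 pSmad1/5 peaks that are pieces of 1 call. The first (chr8:25510974-25514827) lay 3932 bp outside the gene and held the call's maximum, and the second (chr8:25518266-25520538) lay over the gene end with the lower coordinate. Their call had a total signal above 48.5% of the list and a maximum of 16, equal to the list median. Signals are the authors' coverage values for a whole call, so a percentile ranks a peak within its own list and does not compare the antibodies. The nearest pSmad3 peak to Fgfr1 was 840 kb away, a distance that 88.0% of protein-coding genes undercut.

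Fgfr2, the receptor whose epithelial form answers mesenchymal ligands, was the only receptor gene with both antibodies. Its pSmad1/5 peak (chr7:130247196-130249918) lay inside the gene, 16890 bp from the start, with a total above 52.4% of the list. Its pSmad3 peak (chr7:130190398-130195440) lay inside the gene as well, 71368 bp from the start, and was low in its list, with a total above 7.0% and a maximum of 11 against a list median of 13. The 2 peaks were 51756 bp apart.

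Fgfr3, a receptor best known for restraining cartilage growth, had 2 pSmad1/5 peaks from separate calls. The stronger (chr5:33732731-33734370) lay inside the gene, 10425 bp from a start, with a total above 65.9% of the list and a maximum of 19. The other (chr5:33713464-33715451) lay 6273 bp outside, on the side of the start, with a total above 5.88%. Fgfrl1, a receptor-like protein without a kinase domain, had a pSmad1/5 peak (chr5:108707038-108709451) that began 88 bp beyond the end of the gene farthest from its start, with the call's maximum inside the gene. Its total lay above 61.9% of the list. The nearest pSmad3 peaks were 21.5 kb from Fgfr3 and 150.0 kb from Fgfrl1. Fgfr4 had neither, with distances of 153 kb to pSmad1/5 and 123 kb to pSmad3.

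**Figure D2:**
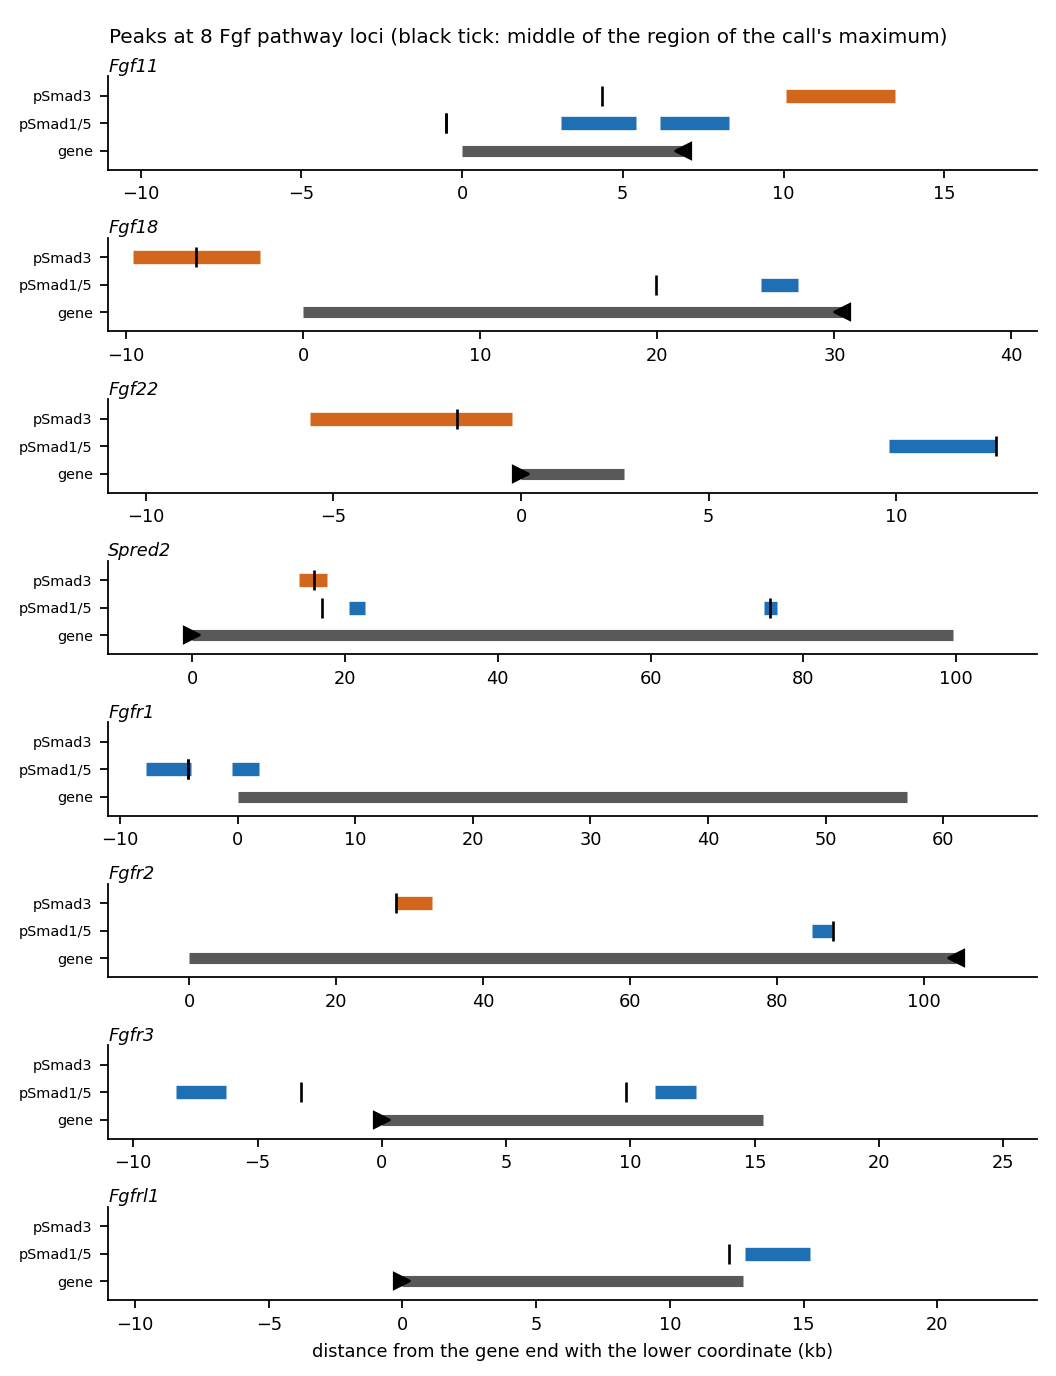
Positions of peaks at 8 loci, on a horizontal axis in kb from the gene end with the lower coordinate, with the gene in grey. Where RefSeq gave the strand, an arrowhead marks the 5′ end of the gene body. That end can differ from the start of a promoter window, as at Fgf11. Blue bars are pSmad1/5 peaks, orange bars pSmad3 peaks, and black ticks the middle of the region of maximum signal of the call. At the 5 loci with both colours no blue bar meets an orange bar.

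Peaks of either antibody were present at 7 of the 20 ligand genes (35.0%), where 37.6% of protein-coding genes had a peak of either, so the count is near the background. Fgf8, an early signal of the dental epithelium, had a pSmad1/5 peak over its lower-coordinate end (chr19:45736366-45738910), close to the lowest in the list by total signal (above 2.24%), with a maximum of 15. Its nearest pSmad3 peak was 86.2 kb away. Fgf18 had a pSmad1/5 peak inside the gene (chr11:33142806-33144941), 2459 bp from the start, with the highest total among the members' pSmad1/5 peaks (above 74.5% of the list). A pSmad3 peak (chr11:33107370-33114520, total above 66.0%) lay 2450 bp beyond the other end of the gene.

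Fgf11, an intracellular family member, had 2 pSmad1/5 peaks that are pieces of 1 call (total above 72.7%, maximum 17). The first (chr11:69799152-69801490) lay inside the gene, and the second (chr11:69802210-69804373) covered the start shown in the sequence above, and also touched the body of the neighbouring gene Tmem102. Neither held the call's maximum (69795565 to 69795596), which lay outside the gene, beyond the end opposite the start. A pSmad3 peak (chr11:69806141-69809547, total above 77.6%, maximum 16) lay 3197 bp outside the gene, also within reach of Tmem102, Gm39566 and Spem2. Fgf22 had a pSmad3 peak that ended 241 bp before the gene (chr10:79749416-79754810, total above 38.3%). Its pSmad1/5 peak (chr10:79764854-79767698, total above 58.8%) was 7059 bp beyond the other end, in the body of Rnf126.

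Fgf1 and Fgf2, both widely expressed ligands without a classical secretion signal, had pSmad1/5 peaks alone, with no pSmad3 peak in either locus. The Fgf1 peak on chromosome 18 (38915575 to 38918530, total above 70.6%) lay inside the gene but also inside Arhgap26 and Gm5820, so it cannot be assigned to Fgf1. The Fgf2 peak (chr3:37386440-37387422) was 983 bp wide and 37787 bp from the start, with a total above 35.6% and a maximum of 13. Fgf17 was the only member with pSmad3 alone. Its peak (chr14:70641010-70645714) lay over the higher-coordinate gene end, with a low total (above 14.1%) and a maximum of 16 against a list median of 13. The nearest pSmad1/5 peak to Fgf17 was 16.4 kb away, in Dmtn.

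No peak of either antibody lay within 10 kb of the other 13 ligand genes, which include Fgf3 and Fgf10, signals of the dental mesenchyme, and Fgf4, Fgf9 and Fgf20, signals of the dental epithelium and enamel knot. Fgf20 stood farthest from any peak, 1170 kb from pSmad1/5 and 3180 kb from pSmad3, distances undercut by 95.0% and 97.3% of protein-coding genes. Fgf10 was 665 kb and 693 kb away, Fgf9 208 kb and 187 kb, and Fgf5, which restrains hair growth, 480 kb and 1110 kb. Fgf7, a mesenchymal ligand for epithelia, was 33.6 kb from a pSmad1/5 peak in Fam227b and 380 kb from pSmad3. A missing peak means that the lists hold no call in the locus, and signal below the calling threshold was not examined.

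Fgf3, Fgf4 and Fgf15 are neighbours on chromosome 7 and shared their nearest peaks. The nearest pSmad3 peak of Fgf3 and Fgf4 was the same (chr7:144821440-144826415), 12.2 kb and 35.0 kb away, and it was among the weakest in the list by total signal (above 0.0759%). The nearest pSmad1/5 peak of Fgf4 and Fgf15 was also shared (chr7:144918519-144920642, in LTO1), 53.3 kb and 17.6 kb away. That of Fgf3 was a different peak, 38.1 kb away on the opposite side. The nearest pSmad3 peak of Fgf15 (chr7:144935438-144939804) touched Ccnd1, a cell cycle gene, at 34.5 kb. Fgf6 and Fgf23, neighbours on chromosome 6, shared a pSmad3 peak in Tigar, 76.0 kb and 18.5 kb away, and their pSmad1/5 distances were 54.2 kb and 14.8 kb.

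The remaining intracellular and hormone genes also had none. Fgf12 and Fgf14, the longest members at 595 kb and 703 kb, had no peak in bodies that size. Fgf12 was 101 kb from pSmad1/5 and 413 kb from pSmad3. Fgf14 was 124 kb and 123 kb from peaks that lay at the same place on chromosome 14 in both lists, with maxima of 8031 and 4732 against list medians of 16 and 13. Fgf21 was 63.7 kb and 61.8 kb from overlapping peaks of the lists, both touching Sec1. Nearest to the 10 kb limit, the Fgf22 pSmad1/5 peak at 7.06 kb was just inside, and the Fgf3 pSmad3 peak at 12.2 kb and the Fgf23 pSmad1/5 peak at 14.8 kb were just outside.

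Of the 8 feedback genes, Spry4 and Spred2 had peaks. Spry4, a Sprouty inhibitor of receptor tyrosine kinase signalling, had 2 pSmad1/5 peaks on chromosome 18 that are pieces of 1 call (total above 56.2%, maximum 15). The first (38593749 to 38595577) lay inside the gene, and the second (38598933 to 38603491) lay over the higher-coordinate gene end, held the maximum, and also touched Arhgap26. The nearest pSmad3 peak was 106 kb away. The Fgf1 peak described above, which also touches Arhgap26, belongs to a separate call.

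Spred2, which blocks activation of Raf, had 2 pSmad1/5 peaks and 1 pSmad3 peak, all inside the gene. The pSmad3 peak (chr11:19938387-19942137, total above 17.8%) was 13945 bp from the start. A pSmad1/5 peak (chr11:19945010-19947031, total above 24.0%) followed 2873 bp further on. The other pSmad1/5 peak (chr11:19999350-20000989) had a low total (above 25.3%) but a maximum of 83, above 96.7% of the list and the only member peak over 2 times its list median. Its width was 1640 bp. Spred2 kept its pSmad1/5 call without that peak.

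The other 6 feedback genes had no peak of either antibody in the locus, where 62.4% of protein-coding genes had none and the length classes give 4.82 of the 8. Dusp6, a phosphatase that inactivates ERK, was 347 kb from pSmad1/5 and 69.8 kb from pSmad3. Etv4 was 147 kb and 24.1 kb away, and Etv5 37.5 kb and 113 kb, with both of its nearest peaks in Dgkg. Spry1 was 112 kb and 478 kb away, Spry2 50.1 kb and 2050 kb, and Spred1 258 kb and 878 kb. Spry1, Spry2, Spred1 and Etv5 lay nearer to a pSmad1/5 than to a pSmad3 peak, and Dusp6 and Etv4 the other way round.

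**Figure D3:**
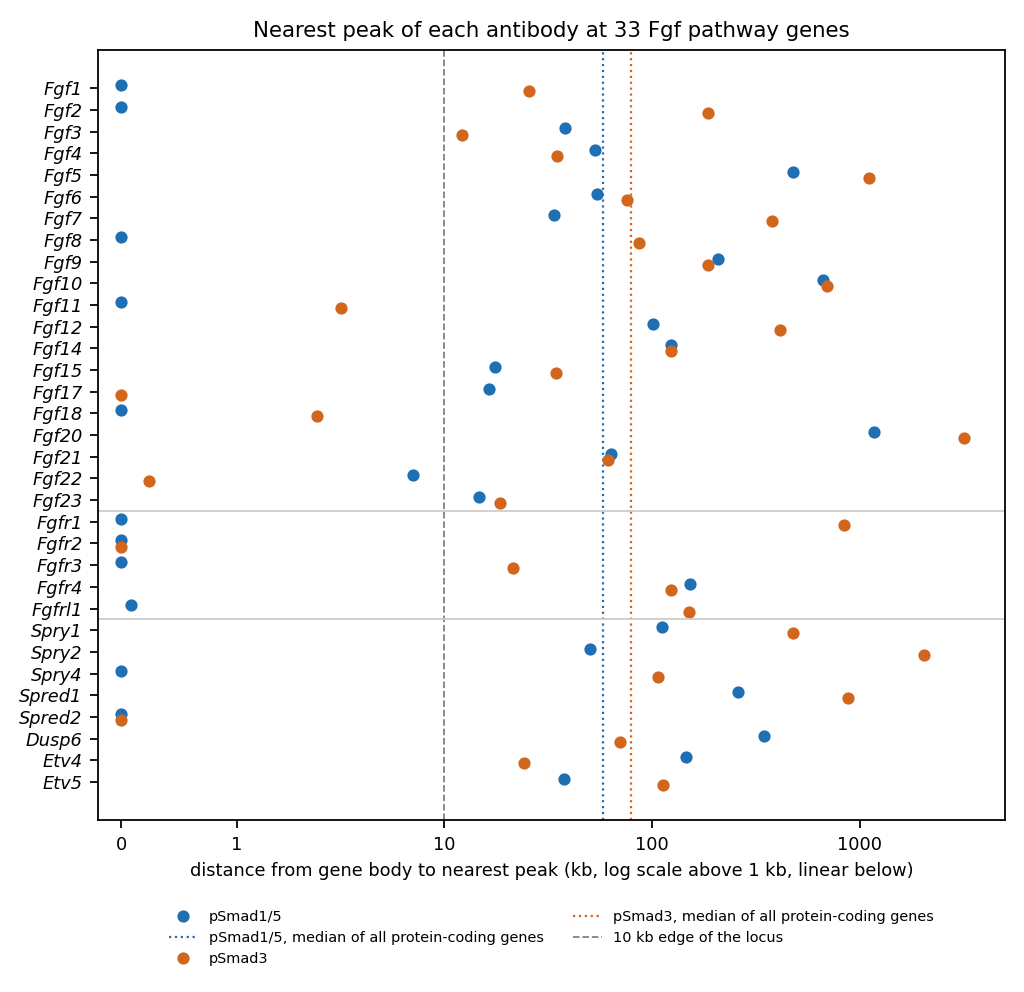
Distance in kb from each gene body to the nearest pSmad1/5 (blue) and pSmad3 (orange) peak, on a log scale above 1 kb and linear below, with ligands, receptors and feedback genes separated by grey lines. Dotted lines are the medians over all protein-coding genes (58.1 kb and 79.2 kb), and the dashed line is the 10 kb edge of the locus. That edge separates the 12 genes with a pSmad1/5 peak and the 6 with a pSmad3 peak from the others.

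Measured by distance, the members' median was 37.5 kb to a pSmad1/5 peak and 86.2 kb to a pSmad3 peak, against 58.1 kb and 79.2 kb over all protein-coding genes. A pSmad1/5 peak touched the gene body itself at 10 members (30.3%), where 18.4% of protein-coding genes had 1. A pSmad3 peak touched it at 3 members (9.09%), where 16.8% did: Fgf17, Fgfr2 and Spred2. For receptors the median distance to pSmad1/5 was 0 kb, since 3 of 5 were touched. For feedback genes it was 81.0 kb, and for ligands 35.9 kb. To pSmad3 the medians were 123 kb for receptors, 110.0 kb for feedback genes and 68.9 kb for ligands. More than 100 kb separated 11 members from pSmad1/5 (33.3%, against 40.1% of protein-coding genes) and 16 from pSmad3 (48.5%, against 45.8%).

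Where both antibodies had peaks, they lay at different places. In the 5 such loci (Fgf11, Fgf18, Fgf22, Fgfr2 and Spred2) there were 0 overlapping pairs, while 46.7% of the 3032 protein-coding genes with both had at least 1 overlapping pair. The shortest gap between a pSmad1/5 and a pSmad3 peak was 1768 bp at Fgf11, 2873 bp at Spred2, 10044 bp at Fgf22, 28286 bp at Fgf18 and 51756 bp at Fgfr2. The regions of maximum signal came closer. At Fgf11 the maximum of the pSmad3 call (69800420 to 69800442) fell inside the first pSmad1/5 peak, and at Spred2 the maximum of a pSmad1/5 call (19941409 to 19941412) fell inside the pSmad3 peak. At the other 3 loci no maximum of either list fell in a peak of the other. A deposited peak can therefore be a piece of a longer call, and 0 overlapping pairs does not show that the signals were apart.

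By total signal, the members' pSmad1/5 peaks lay around the middle of their list and most of their pSmad3 peaks below it. The 17 pSmad1/5 peaks came from 14 calls, with totals above 2.24% to 74.5% of the list (median 56.2%) and maxima of 13 to 83. The 6 pSmad3 peaks came from 6 calls, with totals above 7.0% to 77.6% (median 28.0%) and maxima of 11 to 16. Inside the gene lay 9 of the pSmad1/5 peaks, over a gene end 4 and outside 4, and for pSmad3 the counts were 2, 1 and 3. The region of maximum signal lay within the peak for 3 of the 17 pSmad1/5 peaks and 5 of the 6 pSmad3 peaks. No share over the whole lists is given for these places or maxima, so they are not a trait of the members. The whole pSmad1/5 list holds 10741 peaks from 8380 calls, and the pSmad3 list 7905 peaks from 7682 calls. Another protein-coding gene's locus also held 9 of the pSmad1/5 and 3 of the pSmad3 peaks, and 4 and 0 touched another gene's body.

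**Figure D4:**
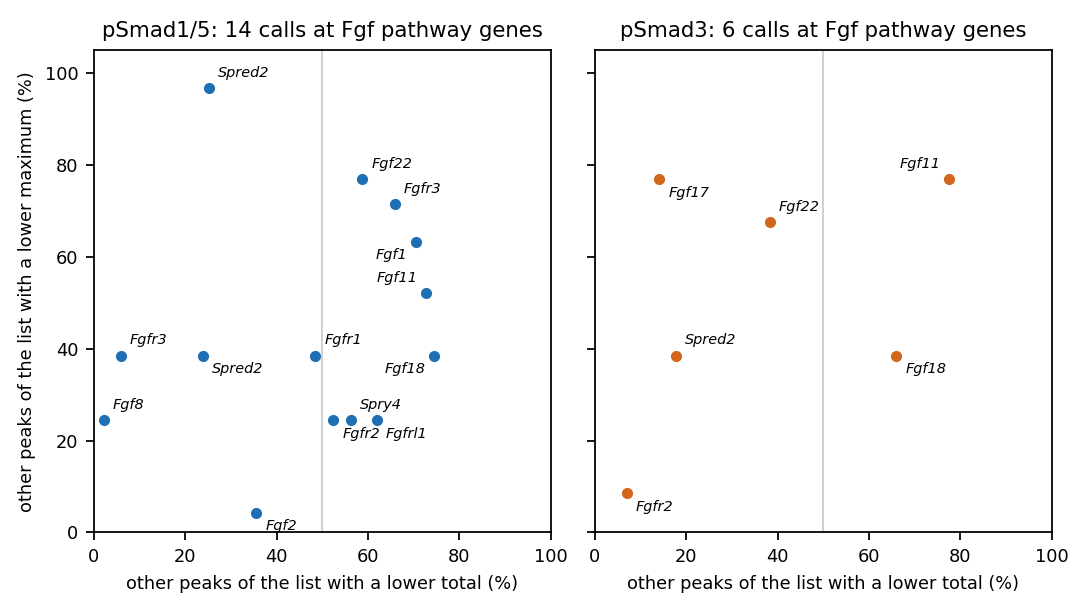
Each point is a call at a member gene, placed by the percentage of the other peaks of its list with a lower total (horizontal) and a lower maximum (vertical), for pSmad1/5 on the left and pSmad3 on the right. The grey line marks 50% on the horizontal axis. No call reaches 80% by total signal in either list, and a Spred2 call stands highest by maximum.

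Genes that act beside these members in the pathway were taken from further lists. Of 22 signal transduction genes between receptor and MAP kinase, 10 had a pSmad1/5 peak (45.5%, 7.01 by locus length) and 9 a pSmad3 peak (40.9%, 6.34 by length), with 7 having both (3.93 by length). They include Cbl, a ubiquitin ligase that removes receptors (pSmad1/5 alone, total above 78.8%), and Hras, a Ras protein (both antibodies, 75.8% and 55.7%). Map2k2, a kinase of MAP kinases, had 2 pSmad3 peaks, the higher with a total above 77.0% of the list. At Sos2, an exchange factor for Ras, the highest maxima were 334 for pSmad1/5 and 234 for pSmad3, over 10 times the list medians. Of 19 co-receptor and extracellular genes, 7 had a pSmad1/5 peak (6.19 by length) and 5 a pSmad3 peak (5.45). Flrt1, a transmembrane partner of Fgf receptors, had 5 and 3 peaks from 4 and 3 calls (totals above 92.6% and 87.4%). Hspg2, the basement membrane heparan sulfate proteoglycan perlecan, had 7 and 4 peaks from 3 and 4 calls (90.1% and 90.0%). Gpc1, a membrane-anchored proteoglycan, had 3 and 1 peaks from 2 and 1 calls. Sdc3, a syndecan, had 2 pSmad1/5 pieces of 1 call and 0 pSmad3 peaks.

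Of 17 other response genes, 5 had a pSmad1/5 peak (4.58 by length) and 6 a pSmad3 peak (4.14). Dusp5, a nuclear phosphatase of ERK, had 1 of each (totals above 45.9% and 75.8%), and Elk3, an Ets factor, 1 of each (83.5% and 57.9%). Erf, an Ets repressor that ERK controls, had 2 pSmad1/5 pieces of 1 call and 1 pSmad3 peak, and Ets1 a pSmad3 peak alone (54.1%). Peak lists hold no expression, so the labelled tissue could not be checked against its markers. As a description, pSmad1/5 and pSmad3 peaks were at 2 and 0 of 4 dental epithelium markers, 1 and 0 of 4 dental mesenchyme markers, 2 and 1 of 3 endothelial markers and 1 and 1 of 3 macrophage markers. The length classes give 1.1 and 1.0, 1.09 and 0.888, 0.908 and 0.857, and 1.02 and 0.909 genes, and the markers' part in the members' peaks was not tested.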

How the data were processed

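Peaks were called with SEACR on mm10 and each list holds peaks common to 2 libraries, per the labels' descriptions and the submitters' processing notes, which also name Bowtie2, SAMtools, bedtools and deepTools. Of the versions, the threshold, any control library and how the libraries' lists were joined, none is given in the sources used here. Per the labels, a call's total and maximum are the authors' coverage signal, with unstated scaling, and lines that share both and the region of the maximum were counted as pieces of 1 call.

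Gene bodies came from the RefSeq table of GRCm38.p6, without exons, leaving out genes listed in the first 3 Mb of a chromosome. Distances and overlaps were computed in Python 3.11.15 with pandas 2.3.3 and numpy 2.4.6, and the overlap code was tested on simulated data. Percentiles give the share of the other peaks in a list with a lower value. No test was made, because each antibody has 1 list. All 33 members were described by role, each with its peaks or its nearest peaks, and of each further list up to 4 genes with the highest total percentile were named. The members and lists were chosen with earlier results of these data known.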

Additional observations from a re-analysis of the deposited data

How the results depend on the processing

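Of 34 recomputed counts, 27 stayed within 1.5 times the reported count, the limit itself included. Among them were every alternative for the 12 genes with a pSmad1/5 peak (8 to 18) and for peaks counted as calls (14 and 6). The extremes of 8 and 18 genes lie exactly at that limit. The 8 with totals above the list median are 24.2% of members, against 14.4% of protein-coding genes. The 18 with 50 kb on each side are 54.5%, against 47.3%. Stricter overlaps could not change the 0 overlapping pairs and are not counted. The 6 genes with a pSmad3 peak became 3 with the gene body alone, 13 with 50 kb on each side and 2 with peaks above the list median of total signal (protein-coding genes 16.8%, 42.4% and 14.1%). The 5 genes with both became 2, 11 and 2 in these settings (8.59%, 31.9% and 6.27%). The 20 genes with neither became 13 with 50 kb (42.2%). These settings by construction count fewer or more peaks per gene. With each peak given to its nearest gene end within 100 kb, pSmad3 had 9 member genes (27.3%, against 20.9% of protein-coding genes), so its position below the background depends on how peaks are assigned. The members with neither were then 17 (51.5%, against 66.4%), so their nearness to the background also depends on it. Leaving out peaks that touch another gene's body was an alternative added after seeing the data. It left 10 pSmad1/5 genes, without Fgf1 and Fgf22, and 6 pSmad3 genes (20.4% and 16.7% of protein-coding genes). The pSmad3 count did not change and was then near the background, whose share had been 24.4% in the main setting. The receptor count for pSmad1/5 was 4 of 5 in the main setting and 3 with the gene body alone or with peaks above the median total. The shares of protein-coding genes in these settings were 27.3%, 18.4% and 14.4%. No paired analysis was possible because each antibody has 1 list with no column per library, and no replicate could be left out for the same reason. Depth is unknown, so a missing peak may lie just under the calling threshold.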
